A study of Mus musculus with 3 samples.

Results

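The 40 genes described here encode the cytosolic heat shock proteins of the mouse, their co-chaperones, the heat shock factor Hsf1, 7 subunits of the cytosolic chaperonin CCT and the 2 subunits of the mitochondrial chaperonin. They are listed by symbol, with no threshold on a measured value, out of 31053 gene rows, and all 40 were found in each of 3 count tables. A group of 10 is known to be strongly induced by heat and other stress (Hspa1a, Hspa1b, Dnajb1, Hsph1, Hsp90aa1, Hspb1, Bag3, Dnaja4, Dnajb4 and Chordc1, called inducible here) and the other 30 are called constitutive, although 11 of the 30, such as Hspa8 and Hspe1, are also known to rise with stress.

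Single-cell RNA sequencing with the 10x Chromium 3′ v3.1 chemistry was applied to hippocampal cells of wild-type C57BL/6 mice labelled 2 years old, in 3 libraries (replicates 1, 2 and 3) that form a single group. The title of replicate 3 gives 25 months. No young animals, other genotype or treatment were included, so every comparison is between cells of the same libraries, all of which were dissociated with papain (about 20 units per ml) and cleared of myelin with beads. The series names 6 hippocampi, and which animals went into which library is not given in the labels, so p-values measure only the spread between these libraries, which may be technical.

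Replicates 1, 2 and 3 held 45716237, 7185668 and 40377042 UMIs (unique molecular identifiers, each standing for 1 captured RNA molecule) in 7241, 1062 and 6456 barcodes. Between 2 and 12 barcodes were shared by any 2 libraries. A cell entered a class when all 3 of its markers were detected, which no member is: Cldn5, Flt1 and Pecam1 for endothelial cells, Vtn, Kcnj8 and Abcc9 for pericytes, Cx3cr1, P2ry12 and C1qa for microglia, Ccdc153, Tmem212 and Foxj1 for ependymal cells, and Slc1a2, Aqp4 and Gja1 for astrocytes. Replicates 1, 2 and 3 gave 2228, 396 and 1604 endothelial cells, 48, 17 and 42 pericytes, 801, 92 and 750 microglia, 77, 8 and 163 ependymal cells and 1078, 70 and 638 astrocytes. The 8 ependymal cells of replicate 2 fell under the minimum of 10 cells, so ependymal values rest on replicates 1 and 3. The summed level of a class's own 3 markers was at least 4629.6 CPM (UMIs scaled to 1000000 UMIs of the class) in its own cells of the profiles used. The neuronal markers Snap25, Syt1, Rbfox3, Slc17a7 and Gad1 summed to at most 12.5 CPM in every class, and no neuronal class was formed although the tissue is hippocampus.

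Heat shock proteins of the Hsp70 family, with their J-domain partners, hold unfolded stretches of protein and release them in cycles of ATP hydrolysis, and Hsp110 proteins speed that cycle by exchanging the nucleotide. Hsp90 and its co-chaperones finish the folding of kinases and receptors, small heat shock proteins hold unfolding proteins without ATP, and the ring-shaped chaperonins enclose a protein while it folds (CCT folds actin and tubulin). Under stress the transcription factor Hsf1 forms trimers and binds heat shock elements, inverted repeats of GAA in the promoters of the inducible genes.

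The promoters are shown because heat shock elements were more frequent in those of inducible members, although they do not divide the groups cleanly. The inducible members were picked as genes known to respond to stress, so a higher share among them is no independent result. In the RefSeq promoter table (GRCm38.p6, 250 bases before to 50 bases after each start), 33 of the 40 members had an entry. The inverted repeat GAANNTTC or TTCNNGAA, searched on both strands, where a repeat may overlap the next, stood in the windows of 8 of the 9 matched inducible members (88.9%) and 9 of the 24 matched constitutive members (37.5%), against 17.0% of all 27025 genes in the table. The inducible Dnajb1 had no such repeat. An element of 3 alternating units was held by 5 of the 33 members, Hsph1, Chordc1, Dnajb6, Hspd1 and Hspe1, against 0.662% of all genes. Of these members 2 are inducible (22.2% of those matched) and 3 constitutive (12.5%). A match is a description of the letters and not a measured binding site. Below are the stretches of Hspa1a, Hspa1b and Hspb1, and the shared stretch between the heads of the divergent genes Hspd1 and Hspe1. The first 3 had the largest log2 increases in endothelial cells among members with counts in every class. The stretches are written 5′ to 3′ on the strand of the named gene, with the inverted repeats in capitals. They lie on the minus strand at chr17:34972241-34972272 (Hspa1a) and chr17:34959323-34959354 (Hspa1b), and on the plus strand at chr5:135887790-135887841 (Hspb1) and chr1:55088047-55088088 (Hspe1, of which Hspd1 carries the reverse complement).
Hspa1a: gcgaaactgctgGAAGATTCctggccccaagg
Hspa1b: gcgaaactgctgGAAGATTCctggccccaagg
Hspb1: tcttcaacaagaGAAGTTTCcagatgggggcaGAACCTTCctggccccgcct
Hspe1: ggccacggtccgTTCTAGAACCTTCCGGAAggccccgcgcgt
The stretches of Hspa1a and Hspa1b are the same, and 296 of the 300 bases of their promoter windows are identical. The longest open reading frames of the pair are 99.4% identical, while the transcripts after it are 48.5% identical. The 3′ chemistry reads that last part, but the sources used here do not say how reads shared by both were counted, so the division of RNA between Hspa1a and Hspa1b is uncertain and their sum is given where it matters.

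Summed inducible chaperone RNA separated the classes far more than summed constitutive chaperone RNA did. This describes the sums, which a few abundant members set, and not each member. As a ratio of mean levels in endothelial cells over astrocytes, the inducible Hspa1a was at 67.9 but the inducible Dnajb4 at 1.99. For ependymal over endothelial cells the constitutive Cryab was at 185 and Hspa2 at 23.5. The 10 inducible members summed to 29148, 22709 and 20272 CPM in endothelial cells of replicates 1, 2 and 3. They summed to 32643, 7059 and 8398 CPM in pericytes, 5728, 4478 and 2586 CPM in microglia, 7510 and 8082 CPM in ependymal cells (replicates 1 and 3) and 938, 1011 and 821 CPM in astrocytes. Endothelial cells were above microglia, ependymal cells and astrocytes in every library with no overlap, astrocytes were the lowest class in every library, and the pericytes of replicate 1 stood far above those of replicates 2 and 3. The 30 constitutive members spanned a narrower range, with 10915, 9363 and 7849 CPM in endothelial cells, 11999, 7740 and 6008 CPM in pericytes, 6906, 5196 and 5315 CPM in microglia, 14215 and 15193 CPM in ependymal cells and 3882, 3705 and 4280 CPM in astrocytes. Here ependymal cells were the highest class and astrocytes again the lowest. All 40 members together took 3.34% of endothelial UMIs on average and 0.488% of astrocyte UMIs.

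**Figure D1:**
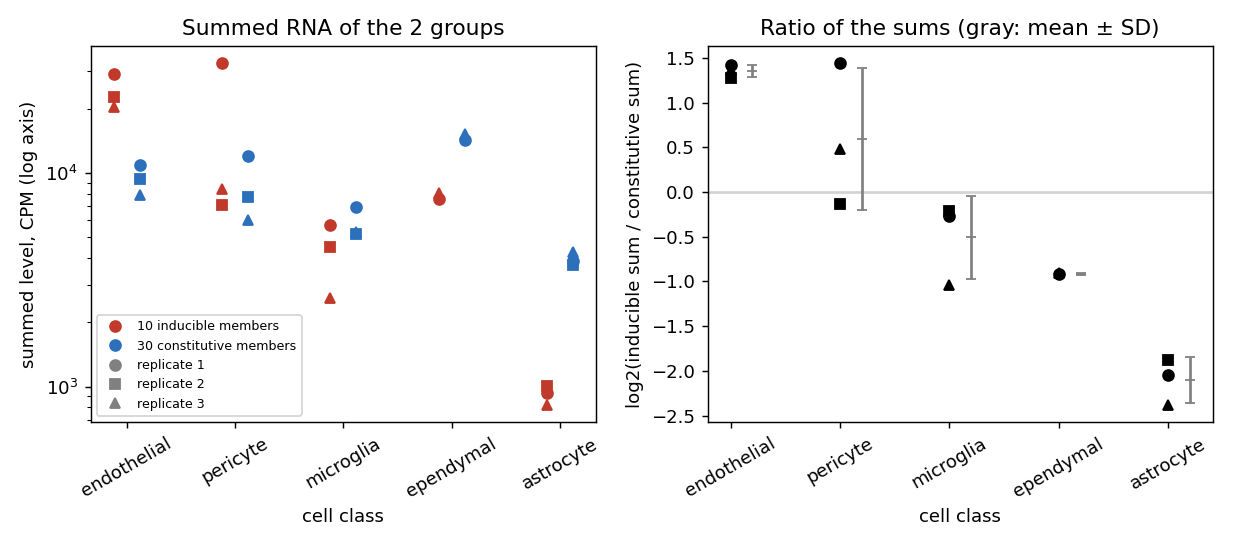
Left, the summed level (CPM, log axis) of the 10 inducible (red) and 30 constitutive (blue) members in each class, 1 symbol per library. Right, the log2 ratio of the 2 sums per library with its mean and SD in gray: endothelial cells lie between 1.28 and 1.42, astrocytes between -2.38 and -1.87, and the pericytes of replicate 1 lie apart from those of replicates 2 and 3.

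The log2 ratio of the inducible to the constitutive sum averaged 1.35 ± 0.07 in endothelial cells, 0.60 ± 0.79 in pericytes, -0.51 ± 0.46 in microglia and -2.10 ± 0.26 in astrocytes (SD, n = 3 each), and -0.92 ± 0.01 in ependymal cells (SD, n = 2). Astrocytes had the lowest ratio in every library, without overlap. Pericytes of replicate 1, at 1.44, were just above the endothelial cells of that library, at 1.42, so endothelial cells and pericytes overlapped, and microglia of replicate 3, at -1.04, overlapped ependymal cells. The sums of a few abundant members set these ratios. Without Hspa1a and Hspa1b the ratio was 0.05 in endothelial cells and -1.10 in pericytes. With the 11 further stress-responsive members moved to the inducible side it was above 0 in every class, from 0.50 in astrocytes to 2.61 in endothelial cells. Over the 14 profiles of class and library, non-members whose CPM ran most like the inducible sum among 7008 genes included Tpm4 (Spearman 0.96), Hipk3, Arid5b and Myl6 (0.93 each). These profiles share libraries and cell suspensions, so the correlations are descriptions.

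The summed level of 16 immediate early genes such as Fos, Jun and Egr1, which cells switch on within minutes of a stimulus and also during tissue dissociation, was highest in endothelial cells and lowest in astrocytes in every library, while the classes between did not keep the order of their inducible sums. It was 38643, 47853 and 38654 CPM in endothelial cells of replicates 1, 2 and 3, 26024, 11027 and 12533 CPM in pericytes, 14515, 19410 and 14775 CPM in microglia, 19411 and 33505 CPM in ependymal cells and 3597, 4295 and 2077 CPM in astrocytes. Its part in the class differences was not tested. The median mitochondrial share of UMIs was 10.0%, 12.2% and 11.5% in astrocytes and at most 6.22% in the profiles used of the other classes.

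UMIs were summed per library and class, and every class was set against the 4 remaining ones, each weighted equally. The test was the quasi-likelihood test of edgeR, blocked by library, with p-values adjusted after Benjamini and Hochberg over 13834 genes and called at 0.05. All 40 members were tested. In endothelial cells 18 members were higher and 6 lower, against 31.4% of all genes higher and 17.6% lower (48.9% in either direction): the inducible group gave 7 higher and 0 lower of 10, and the constitutive group 11 higher and 6 lower of 30. In pericytes 5 members were higher and 4 lower (all genes 10.5% and 6.95%). In microglia 12 were higher and 9 lower (29.4% and 24.5%, 53.9% in all), and in ependymal cells 19 were higher and 4 lower (22.5% and 16.9%). In astrocytes 4 members were higher and 34 lower (27.5% and 22.0%, 49.5% in all), the lower ones being all 10 inducible and 24 of the 30 constitutive members.

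Relative to the median of all genes, the median log2 difference of the inducible group was 0.79 in endothelial cells, 0.66 in pericytes, -0.10 in microglia, 0.69 in ependymal cells and -2.39 in astrocytes. That of the constitutive group was 0.09 in endothelial cells, -0.06 in pericytes, 0.37 in microglia, 0.76 in ependymal cells and -0.83 in astrocytes. The scaling moves the zero line of these comparisons: the median of all genes was 0.15 in endothelial cells under TMM, -0.11 under relative log expression (RLE) factors and -0.19 in DESeq2, and -0.12 in ependymal cells under TMM, against 0.12 and 0.09. In microglia it was -0.04, -0.11 and -0.21 under the same 3. Of the genes called in endothelial cells 64.1% were higher under TMM, 49.2% under RLE factors and 39.1% in DESeq2, and the members then gave 12 higher and 9 lower (RLE) or 10 and 9 (DESeq2). Among the inducible members called higher in endothelial cells, Bag3 and Dnaja4 lost their call under RLE factors, and Bag3, Dnaja4 and Hsph1 in DESeq2. Thinning to 1000 UMIs also lost Bag3 and Dnaja4. In ependymal cells 57.1%, 69.7% and 72.1% of called genes were higher, with 27 members higher and 3 lower (RLE) or 25 and 3 (DESeq2). In microglia 54.5%, 51.2% and 44.5% were higher, with 12 members higher and 9 lower (RLE) or 12 and 11 (DESeq2). The median of the inducible group relative to all genes was 0.78 in endothelial cells with RLE factors and 0.89 in DESeq2. In DESeq2 it was 0.39 in pericytes, 0.01 in microglia, 0.73 in ependymal cells and -2.17 in astrocytes.

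**Figure D2:**
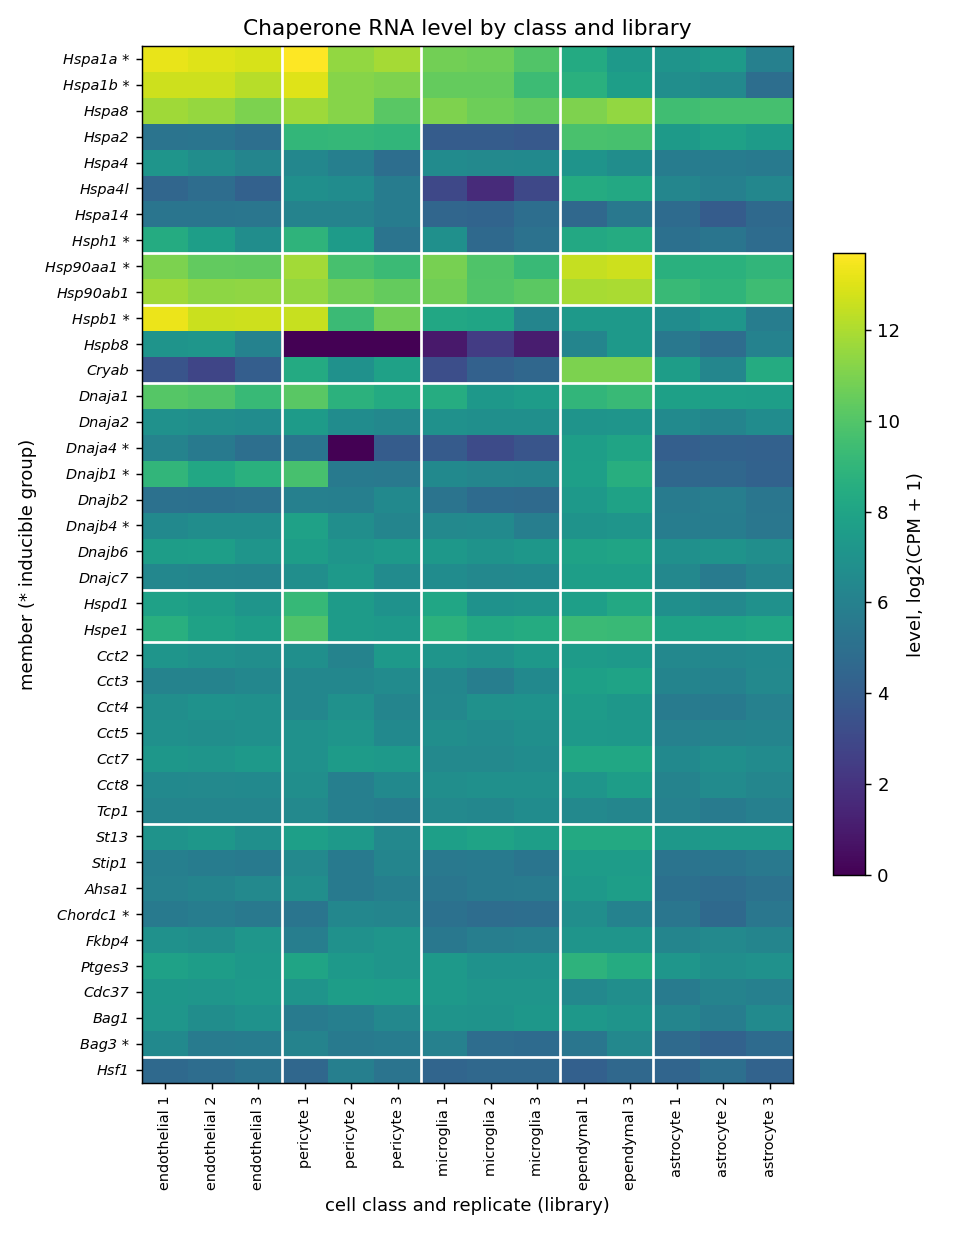
Level of the 40 members as log2(CPM + 1) in the 14 profiles of class and library, with members ordered by role and the inducible group marked by an asterisk. Hspa1a, Hspa1b and Hspb1 are bright in endothelial cells and in the pericytes of replicate 1, Cryab, Hspa2, Hspa4l and Hsp90aa1 in ependymal cells, and Hspb8 is at 0 in the pericytes of all 3 libraries.

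Among the Hsp70 and Hsp110 proteins, the stress-induced Hspa1a and Hspa1b were highest in endothelial cells and pericytes. Hspa1a stood at 9570, 8128 and 7294 CPM in endothelial cells of replicates 1, 2 and 3, against 1748, 1635 and 1011 CPM in microglia, 331 and 167 CPM in ependymal cells and 132, 174 and 61.8 CPM in astrocytes. Every endothelial profile exceeded every profile of those 3 classes, by 46.6 to 118 times over astrocytes within a library. In pericytes it was 13102, 2774 and 3685 CPM, above the endothelial level in replicate 1 and below it in replicates 2 and 3. Against the other 4 classes the log2 difference was 3.81 ± 0.24 (SE) in endothelial cells (edgeR adjusted p = 3.57e-12, higher in 3 of 3 libraries) and 2.56 ± 0.25 in pericytes (adjusted p = 3.11e-08). It was 1.01 ± 0.26 in microglia (adjusted p = 0.00183), -3.11 ± 0.41 in ependymal cells (adjusted p = 1.73e-06) and -4.28 ± 0.36 in astrocytes (adjusted p = 9.73e-10). Hspa1b was at 6397, 6432 and 4651 CPM in endothelial cells, against 8391, 2359 and 2072 CPM in pericytes, 1411, 1374 and 655 CPM in microglia, 407 and 205 CPM in ependymal cells and 106, 87.2 and 30 CPM in astrocytes. It followed the same order of classes, except that ependymal cells held more of it than of Hspa1a, with 0.814 Hspa1a UMIs per Hspa1b UMI in both libraries used (on 114 and 140, and 127 and 156 UMIs), whereas the ratio was 1.18 to 2.06 in every profile of the other classes.

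Free RNA from broken cells can reach every droplet, so the Hspa1a and Hspa1b sum was set beside Cldn5, a junction gene of endothelial cells. Endothelial cells of replicates 1, 2 and 3 held 3.11, 3.09 and 2.11 Hspa1a or Hspa1b UMIs per Cldn5 UMI. Astrocytes held 7.64, 4.2 and 3.17, ependymal cells 36.3 and 10.5, microglia 181, 57.2 and 59.0, and pericytes 955, 52.0 and 97.3. The ratio thus exceeded the endothelial ratio of the same library in every class, least in astrocytes. Free RNA itself was not measured and need not hold the pair and Cldn5 in the endothelial proportion. The ratio therefore cannot show how much of the pair was free RNA in any class. Cldn5 was at 22.5, 98.7 and 59.2 CPM in pericytes, of 177680, 101294 and 135159 UMIs. It was at 20.4 CPM of 343924 UMIs in ependymal cells of replicate 1, so these ratios rest on few Cldn5 UMIs. Detection of Cldn5 is also required for the endothelial class, which can lower the endothelial ratio. After each cell was thinned to 1000 UMIs, 85.4%, 90.2% and 93.5% of endothelial cells held a UMI of either gene, against 39.8%, 44.6% and 35.1% of microglia and 14.2%, 28.8% and 9.98% of astrocytes. Without thinning these shares were 97.4%, 99.2% and 97.9%, against 71.8%, 81.5% and 69.1% and 40.6%, 72.9% and 39.7%, at median depths of 7827, 8272.5 and 6545 UMIs in endothelial cells, 8276, 8525.5 and 7106 in microglia and 4814, 4989 and 7847 in astrocytes. The beta-globin Hbb-bs, which none of these cells should make, had a thinned share of 12%, 39.0% and 28.8% in astrocytes. That was above the astrocyte share for Hspa1a or Hspa1b in replicates 2 and 3. Hbb-bs and the pair need not be equally common in free RNA, so the Hbb-bs share cannot set a background for the pair. Whether astrocytes made the few UMIs of the pair that they held was not tested, nor was this tested for the other classes. In replicate 3 the Hbb-bs share was also the higher one in ependymal cells (45.7%, against 20.7% for Hspa1a or Hspa1b) and pericytes (48.8%, against 46.3%). In replicate 1 it was the lower one, at 9.09% against 34.8% in ependymal cells and 21.7% against 82.6% in pericytes. In microglia the Hbb-bs share was 6.32%, 28.3% and 28.0%, below the share for Hspa1a or Hspa1b in each library.

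Other Hsp70 members had other patterns. Hspa2, best known from male germ cells, was at 849 and 833 CPM in ependymal cells, 535, 543 and 503 CPM in pericytes, 175, 224 and 178 CPM in astrocytes, 37.8, 39.1 and 30.6 CPM in endothelial cells and 15, 14.6 and 12.9 CPM in microglia. No 2 classes overlapped, and neighbours in this order lay far apart relative to the spread between libraries. The log2 difference from the other 4 classes was 3.1 ± 0.15 in ependymal cells, 2.07 ± 0.15 in pericytes and 0.51 ± 0.14 in astrocytes, with -2.21 ± 0.16 in endothelial cells and -3.47 ± 0.19 in microglia (edgeR adjusted p between 6.14e-14 and 0.00372). The Hsp110 protein Hspa4l was also highest in ependymal cells and lowest in microglia, with 346 and 306 CPM in ependymal cells and 6.89, 2.24 and 6.70 CPM in microglia, while pericytes and astrocytes overlapped. Hspa8, the constitutive Hsp70 of most cells, was at 3331, 2963 and 2002 CPM in endothelial cells and 722, 806 and 791 CPM in astrocytes. It was higher in endothelial cells (log2 0.92 ± 0.22, adjusted p = 0.0013) and lower in astrocytes (-1.63 ± 0.26, adjusted p = 1.39e-05), and did not pass in the 3 other classes. Endothelial cells did not stand above ependymal cells throughout, at 0.72 to 1.58 times the ependymal Hspa8 level within a library. The inducible Hsp110 protein Hsph1 differed between libraries, with 337, 201 and 102 CPM in endothelial cells of replicates 1, 2 and 3, against 302 and 336 CPM in ependymal cells and 32.3, 39.5 and 27.2 CPM in astrocytes. Its ependymal call was lost without replicate 3 and under 2 other marker rules, and its endothelial call was lost in DESeq2.

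The Hsp90 pair was highest in ependymal cells. The inducible Hsp90aa1 stood at 5623 and 6290 CPM there, against 2015, 1337 and 1282 CPM in endothelial cells, 3461, 819 and 651 CPM in pericytes, 1880, 948 and 613 CPM in microglia and 410, 428 and 503 CPM in astrocytes. Both ependymal profiles exceeded every other profile, while pericytes and microglia of replicate 1 were above those of the other 2 libraries. The log2 difference was 2.23 ± 0.33 in ependymal cells (edgeR adjusted p = 8.16e-06, higher in 2 of 2 libraries) and -2.13 ± 0.35 in astrocytes (adjusted p = 2.23e-05). The endothelial difference was 0.28 ± 0.30 and did not pass (adjusted p = 0.494). The constitutive Hsp90ab1 was higher in ependymal cells (log2 1.04 ± 0.23) and endothelial cells (1.13 ± 0.19) and lower in astrocytes (-2.01 ± 0.23), with adjusted p of 0.000735, 2.2e-05 and 1.21e-07 (edgeR).

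The 3 small heat shock proteins differed in the classes that held them. Hspb1, which binds actin filaments and is induced by stress, was at 10023, 6065 and 6300 CPM in endothelial cells and 6005, 642 and 1694 CPM in pericytes, against 290, 260 and 73.8 CPM in microglia, 160 and 169 CPM in ependymal cells and 98.2, 143 and 53.7 CPM in astrocytes. Endothelial cells exceeded pericytes in each library and overlapped none of the remaining classes. The log2 difference was 4.83 ± 0.33 in endothelial cells (edgeR adjusted p = 1.23e-11, higher in 3 of 3 libraries), the largest of the 39 members with counts in every class. Cryab, the alpha-B crystallin first known from the eye lens, was at 2047 and 2009 CPM in ependymal cells, against 326, 118 and 222 CPM in pericytes, 192, 76.8 and 337 CPM in astrocytes, 8.73, 17.9 and 22.8 CPM in microglia and 10.8, 6.23 and 15.8 CPM in endothelial cells. Pericytes and astrocytes overlapped, as did microglia and endothelial cells. Its log2 difference was 4.75 ± 0.24 in ependymal cells and fell by 3.88 ± 0.31 in endothelial cells (adjusted p = 1.675e-13 and 3.04e-10). Hspb8, the partner of Bag3 in chaperone-assisted autophagy, was at 134, 142 and 66.3 CPM in endothelial cells, 72.7 and 160 CPM in ependymal cells and 43.5, 29.1 and 65.6 CPM in astrocytes. Microglia held 17 Hspb8 UMIs (1.24 CPM) and pericytes 0 in 414133 UMIs, which allows up to 7.24 CPM over the class at 3 counts and covers counting error only. With UMIs pooled over the libraries, Hspb8 was at least 15.5-fold higher in endothelial cells than in pericytes against that floor. The same pooled bound was 18.4-fold in ependymal cells and 7.36-fold in astrocytes, while no fold is given for microglia. These bounds leave out the spread between libraries, and single profiles, such as endothelial cells of replicate 3 at 66.3 CPM, lie under them. Fitted differences of Hspb8 depend on the prior count and are not given, although its calls are among the counts above.

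**Figure D3:**
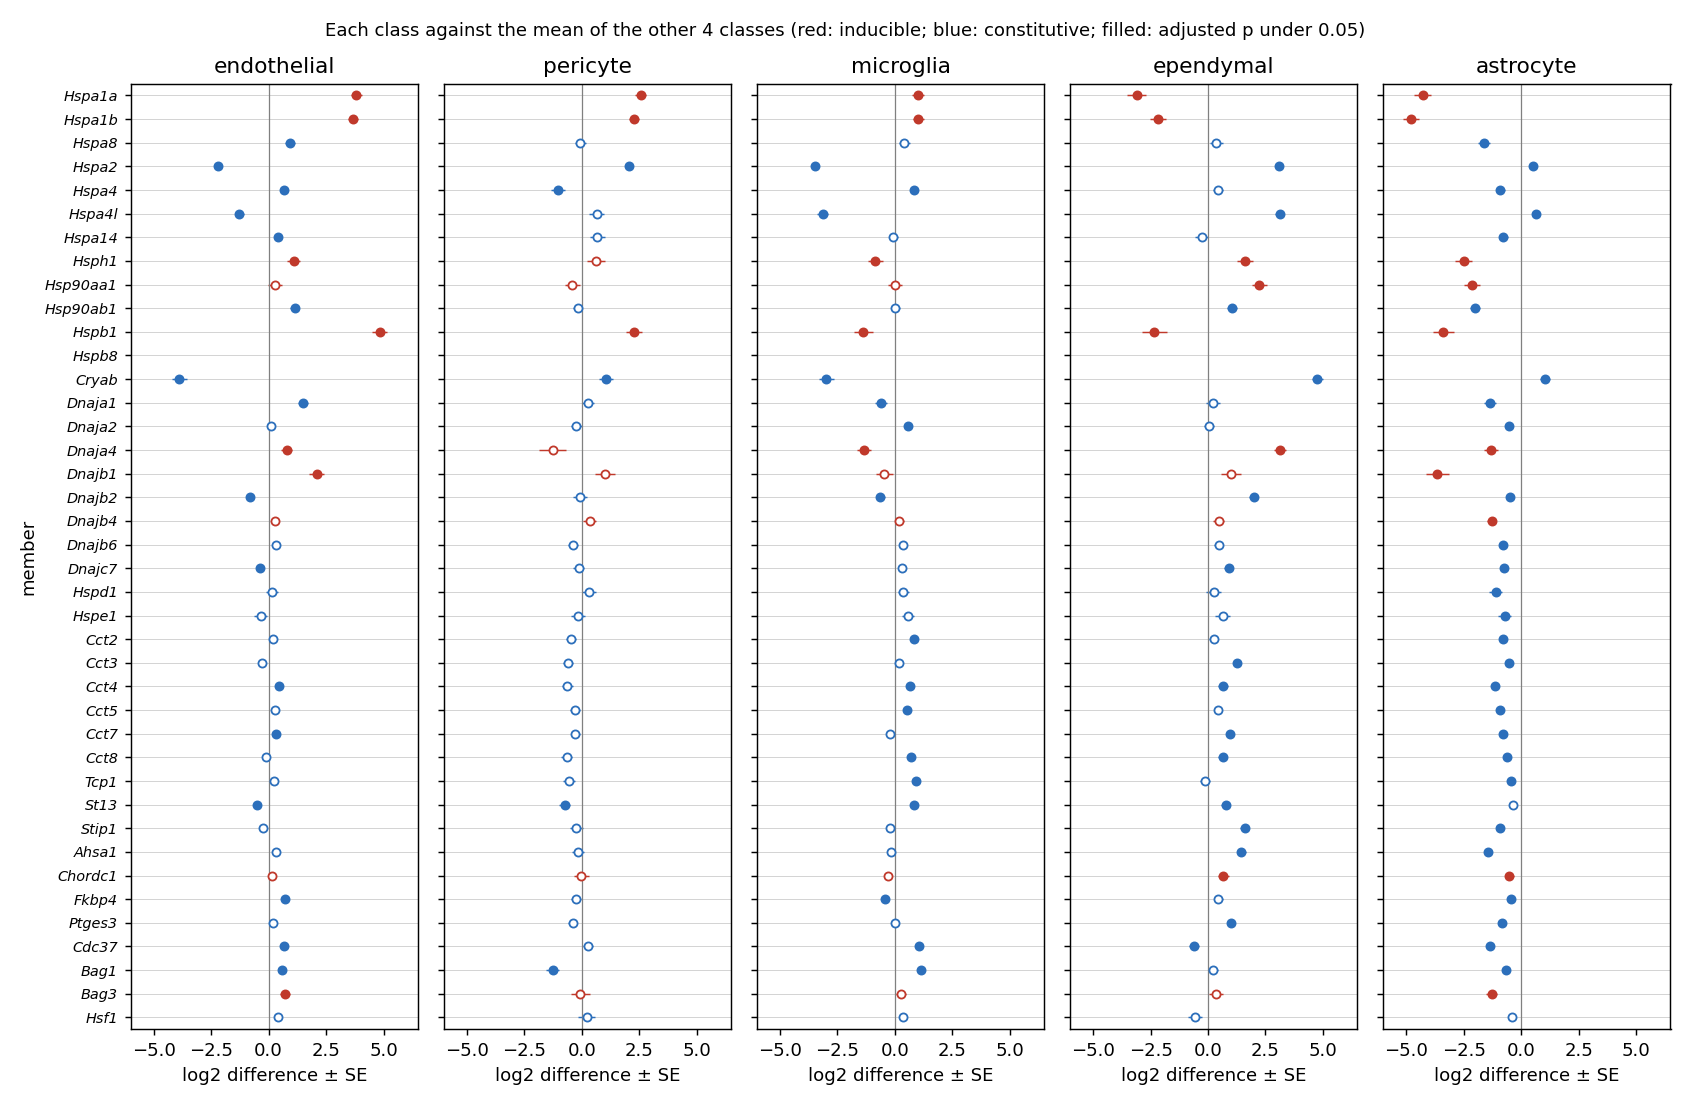
Log2 difference ± SE of each member in a class against the mean of the other 4 classes (edgeR, TMM), inducible members in red, constitutive in blue, filled where the adjusted p is under 0.05. Hspb8 is left out because pericytes hold none of its UMIs. The red points of Hspa1a, Hspa1b and Hspb1 lie far to the right in endothelial cells and far to the left in astrocytes, and the CCT ring lies left of 0 throughout in astrocytes.

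J-domain proteins, which hand clients to Hsp70, gave 3 higher and 2 lower of 8 in endothelial cells, 0 and 0 in pericytes, 1 and 3 in microglia, 3 and 0 in ependymal cells and 0 and 8 in astrocytes. The shares of all genes were 31.4% and 17.6% in endothelial cells, 10.5% and 6.95% in pericytes and 29.4% and 24.5% in microglia. They were 22.5% and 16.9% in ependymal cells and 27.5% and 22.0% in astrocytes. The endothelial counts thus lay near the shares of all genes. Dnajb1, the main stress-induced partner of Hspa1a, was at 513, 290 and 411 CPM in endothelial cells, against 206 and 377 CPM in ependymal cells, 87.5, 76.1 and 73.7 CPM in microglia and 22.8, 22.8 and 18.4 CPM in astrocytes. Endothelial and ependymal cells overlapped, while both lay above microglia and astrocytes. In pericytes it was 844 CPM in replicate 1 and 49.4 and 44.4 CPM in replicates 2 and 3. The log2 difference was 2.09 ± 0.32 in endothelial cells and -3.64 ± 0.49 in astrocytes (edgeR adjusted p = 9.13e-06 and 1.33e-06). Dnaja4 was at 201 and 248 CPM in ependymal cells and at most 68.2 CPM in any profile of another class (log2 3.14 ± 0.27, adjusted p = 1.6e-09). Dnajb2, known from neurons as a partner in protein degradation, was also highest in ependymal cells, at 163 and 235 CPM, against at most 88.8 CPM elsewhere (log2 1.99 ± 0.20, adjusted p = 1.98e-08). Dnaja1 was at 1091, 967 and 594 CPM in endothelial cells and 218, 212 and 203 CPM in astrocytes. Its endothelial level was 0.98 to 2.16 times the ependymal level within a library. The inducible Dnajb4 was at 89.96, 103 and 103 CPM in endothelial cells, 225, 109 and 74.0 CPM in pericytes, 87.0, 94.0 and 57.4 CPM in microglia, 131 and 139 CPM in ependymal cells and 54.2, 54.0 and 41.2 CPM in astrocytes. It passed only in astrocytes, the lowest class in each library.

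Of the 7 measured CCT subunits, 2 were higher in endothelial cells (Cct4 and Cct7, whose calls were lost under 5 and 12 of 15 alternatives, RLE factors and DESeq2 among them for both), 5 in microglia, 4 in ependymal cells and 0 in pericytes, and 0 were lower in any of these 4 classes. Of all genes, 31.4% were higher in endothelial cells, 29.4% in microglia, 22.5% in ependymal cells and 10.5% in pericytes, so the 2 endothelial calls lay near that share. All 7 subunits were lower in astrocytes, against 22.0% of all genes. Their log2 differences there ran from -1.16 (Cct4) to -0.46 (Tcp1), against a median of 0.07 over all genes. The 7 together summed to 742, 721 and 752 CPM in endothelial cells, 698, 701 and 732 CPM in pericytes, 688, 675 and 793 CPM in microglia, 1262 and 1266 CPM in ependymal cells and 486, 519 and 546 CPM in astrocytes. Astrocytes lay below and ependymal cells above all other classes, and endothelial cells, pericytes and microglia overlapped. The mitochondrial Hspd1 and Hspe1, whose promoter stretch is printed above, passed in astrocytes alone, where both were lower (log2 -1.10 ± 0.28 and -0.71 ± 0.28, edgeR adjusted p = 0.00192 and 0.0418). Hspe1 was lower in 2 of 3 libraries, and its call was lost under 7 alternatives, among them RLE factors, DESeq2 and leaving out replicate 1 or 2.

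Co-chaperones gave 4 higher and 1 lower of 9 in endothelial cells, 0 and 2 in pericytes, 3 and 1 in microglia, 5 and 1 in ependymal cells and 0 and 8 in astrocytes. The shares of all genes were 31.4% and 17.6% in endothelial cells, 10.5% and 6.95% in pericytes and 29.4% and 24.5% in microglia. They were 22.5% and 16.9% in ependymal cells and 27.5% and 22.0% in astrocytes. The 3 higher in microglia thus lay near the share of all genes. Stip1, the adaptor that joins Hsp70 to Hsp90, was at 186 and 187 CPM in ependymal cells and at most 84.4 CPM in any profile of another class (log2 1.60 ± 0.19, edgeR adjusted p = 3.21e-07). Ahsa1, which activates the ATPase of Hsp90, was at 160 and 201 CPM in ependymal cells, against 31.5, 29.1 and 35.0 CPM in astrocytes. Bag3, an inducible nucleotide exchange factor, was at 87.5, 49.8 and 53.2 CPM in endothelial cells and 25.3, 18.7 and 26.2 CPM in astrocytes. Its endothelial difference (log2 0.73 ± 0.21, adjusted p = 0.00644) was lost under RLE factors, in DESeq2, without replicate 1 and after thinning to 1000 UMIs. Chordc1, an inducible Hsp90 co-chaperone, was at 108 and 65.7 CPM in ependymal cells, against 47.3, 55.1 and 45.1 CPM in endothelial cells, 39.4, 79.0 and 74.0 CPM in pericytes, 32.9, 29.1 and 29.2 CPM in microglia and 40.9, 24.9 and 41.7 CPM in astrocytes. Ependymal cells and pericytes overlapped, and its ependymal call (log2 0.66 ± 0.24, adjusted p = 0.0345) turned to -0.42 when cells holding another class's marker at 2 UMIs were left out. The call was also lost with no filter on low counts, at 2000 UMIs per cell, with 2 of 3 markers and after thinning to 1000 UMIs. RNA of Hsf1 itself passed in none of the 5 classes. Its log2 difference ranged from -0.58 ± 0.31 in ependymal cells to 0.39 ± 0.17 in endothelial cells (adjusted p = 0.149 and 0.0579), and its level from 17.4 to 59.2 CPM over the 14 profiles.

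A list of 37 further genes of the same pathway (organelle Hsp70 proteins, prefoldins, Bag proteins and others) gave 15 higher and 5 lower in endothelial cells, 1 and 3 in pericytes, 10 and 6 in microglia, 9 and 5 in ependymal cells and 2 and 14 in astrocytes. The shares of all genes called, given above for each class, are the background of these counts, and 10 of 37 in microglia, for example, stands beside 29.4%. Bag5, an Hsp70 exchange factor, was at 73.6, 72.9 and 71.2 CPM in endothelial cells and at most 59.2 CPM in any profile of another class (log2 1.47 ± 0.15, edgeR adjusted p = 1.93e-08). Dnajc3, a J-domain protein of the endoplasmic reticulum, was at 721 and 640 CPM in ependymal cells and at most 326 CPM elsewhere. Other large changes among called genes, as log2 differences, were Hspbp1 in endothelial cells (-1.02), Pfdn4 and Pfdn5 in pericytes (0.84 and -0.81), Unc45a in microglia (-1.01), Dnajb12 in ependymal cells (-1.46) and Dnajb14 in astrocytes (0.72). Fitted changes of Bag2, Fkbp5 and Aarsd1 were larger but rest on classes with 0 UMIs and are not given as folds.

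Endothelial cells and pericytes lie side by side in the capillary wall, and between them 11 members were higher and 3 lower in endothelial cells, against 14.9% and 10.4% of all genes. With RLE factors 6 were higher and 3 lower, and in DESeq2 5 and 3, and the share of called genes that were higher was 59.0%, 48.8% and 40% under TMM, RLE factors and DESeq2, with a median over all genes of 0.29, 0.08 and -0.15. Lower in endothelial cells were Hspa2 (log2 -3.42 ± 0.20), Hspa4l (-1.54 ± 0.35) and Cryab (-3.96 ± 0.38), with edgeR adjusted p of 4.6e-12, 0.0018 and 2.22e-08 and the same sign in 3 of 3 libraries. Hspb1 was higher (2.05 ± 0.47, adjusted p = 0.00177). For Hspa1a the fitted difference of 1.0 ± 0.34 (adjusted p = 0.0344) had opposite signs in the libraries, being higher in endothelial cells in 2 of 3, and it was lost under RLE factors, in DESeq2, without the block, without replicate 2 or 3, with a minimum of 5 cells and without cells holding another class's marker at 2 UMIs. The pericytes of replicate 1 that stood apart carried 1418 CPM of border macrophage markers (Mrc1, Pf4 and Cd163), against 19.7 and 29.6 CPM in pericytes of replicates 2 and 3, and pericytes carried 585, 2863 and 703 CPM of fibroblast markers. Their part in the levels was not tested. Without replicate 1, 17 members were higher and 2 lower in endothelial cells.

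Within endothelial cells summed inducible chaperone RNA was far more uneven than summed constitutive chaperone RNA. After thinning each cell to 2000 UMIs, which left 2161, 349 and 1521 cells and dropped 67, 47 and 83, the inducible members took a median of 2.2%, 1.75% and 1.85% of a cell's UMIs in replicates 1, 2 and 3. The 10th percentile was 0.35%, 0.35% and 0.50% and the 90th was 6.75%, 5.0% and 4.0%, so the ratio of the 90th to the 10th was 19.3, 14.3 and 8.0. For the constitutive members the same ratio was 3.09, 2.55 and 2.56. No Hspa1a or Hspa1b UMI was found in 9.58%, 4.30% and 3.16% of the thinned cells (exact 95% intervals 8.37% to 10.9%, 2.43% to 6.99% and 2.34% to 4.16%, which cover counting error only). The deeper and the shallower of the cells, split at the library's median depth, had mean inducible shares of 3.01% and 2.91%, 2.51% and 2.02%, and 2.05% and 2.08% in replicates 1, 2 and 3. Cells above the median mitochondrial share had lower inducible shares than those below it, 2.41% against 3.51%, 2.01% against 2.50% and 1.86% against 2.28%. Hspa1a correlated over thinned cells with Hspb1 at Spearman 0.73, 0.69 and 0.61. With Bag3 it did so at -0.02, -0.002 and 0.01, and with Chordc1 at 0.07, -0.01 and 0.05. Bag3 and Chordc1 both have few UMIs per thinned cell, which keeps a correlation near 0. These values therefore cannot tell whether Bag3 and Chordc1 run with Hspa1a. Across thinned cells the inducible share correlated with the immediate early share at Spearman 0.55, 0.52 and 0.24. These are descriptions over cells that are not independent samples and share each cell's total.

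**Figure D4:**
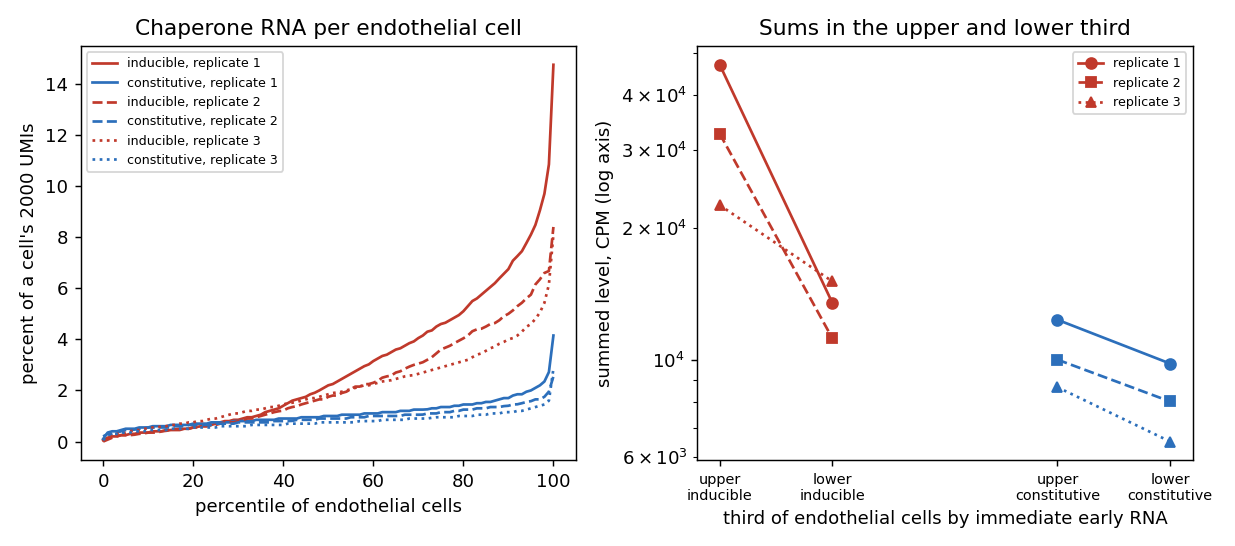
Left, inducible (red) and constitutive (blue) share of the 2000 UMIs of a thinned endothelial cell, in percent, by percentile of cells and library: the red curves climb from at most 0.50% at the 10th percentile to at least 4.0% at the 90th. Right, summed levels (CPM, log axis) in the upper and lower tercile of endothelial cells by immediate early RNA, with lines joining the terciles of a library: the inducible sum is higher in the upper tercile of each library, least so in replicate 3.

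To compare over libraries, endothelial cells with at least 1000 UMIs were split by their immediate early share, which holds no member, into 3 equal parts (terciles), and the upper tercile of each library was set against its lower tercile (737, 128 and 527 cells each). A tercile is a range of a score and not a cell type: 305, 46 and 224 cells lay within 10% of the upper bound. Hspa1a was at 15576, 11851 and 8020 CPM in the upper tercile, against 4106, 3770 and 5482 CPM in the lower. Hspb1 was at 16291, 8574 and 7306 CPM in the upper, against 4685, 3364 and 4362 CPM in the lower. The groups did not overlap for either gene, and the gap was smallest in replicate 3.

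Between the terciles 5 members were higher and 0 lower, against 0.450% and 0.262% of 10674 genes tested (0.712% in all), and all 5 belong to the inducible group. They were Dnajb1 (log2 1.69 ± 0.12, edgeR adjusted p = 0.000292), Hsph1 (1.59 ± 0.15, adjusted p = 0.0015), Hspa1a (1.45 ± 0.23, adjusted p = 0.0253), Hspb1 (1.37 ± 0.18, adjusted p = 0.0119) and Hsp90aa1 (1.19 ± 0.13, adjusted p = 0.00342), each higher in 3 of 3 libraries. Hspa1b was close to its near-identical partner at 1.38 ± 0.28 but did not pass (adjusted p = 0.0731), nor did Hspe1 at 1.04 ± 0.21 (adjusted p = 0.0813) or Hspd1 at 0.86 ± 0.16 (adjusted p = 0.0556). Bag3 and Chordc1, also of the inducible group, had 0.27 ± 0.16 and 0.32 ± 0.21. The 7 CCT subunits lay between -0.21 and 0.06. The median difference was 1.28 over the inducible group, -0.03 over the constitutive group and 0.01 over all genes.

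This comparison has 2 residual degrees of freedom and rests on the pairing of terciles within a library: without the library block no member passed, without replicate 2 only Hsph1 and Dnajb1 did, and without replicate 3 there were 13 members higher and 1 lower. The lower tercile also carried more red blood cell RNA (Hba-a1, Hba-a2, Hbb-bs, Hbb-bt and Alas2), at 4373, 753 and 2405 CPM in the upper tercile, against 17811, 50739 and 27901 CPM in the lower. When cells with over 1% of their UMIs in those markers were left out, the same 5 members passed and the median inducible difference was 1.29. The 5 also passed among capillary-like cells alone and after thinning to 2000 UMIs, where 11 members were higher. When cells were split at the median in place of terciles, Hspa1a did not pass and the other 4 did.

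The vessel segments differed by less. Endothelial cells were called arterial-like (Gkn3, Bmx, Sema3g and Vegfc), venous-like (Nr2f2, Slc38a5, Lcn2 and Ackr1) or capillary-like (Mfsd2a, Tfrc, Slc16a1 and Rgcc) when at least 2 of 4 markers were detected and more than of the other segments, which gave 192, 27 and 139 arterial-like, 23, 1 and 28 venous-like and 1733, 304 and 1201 capillary-like cells. Hspa1a was at 7609, 7899 and 5525 CPM in arterial-like cells and 4864 and 4046 CPM in venous-like cells (replicates 1 and 3), against 10474, 8583 and 7867 CPM in capillary-like cells. It was lower than in capillary-like cells of the same library throughout, while arterial-like and capillary-like values overlapped across libraries. In arterial-like cells 1 member was higher and 11 were lower, against 10.1% and 8.49% of 9998 genes, and in venous-like cells 1 was higher and 9 were lower, against 5.77% and 4.83%.

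**Figure D5:**
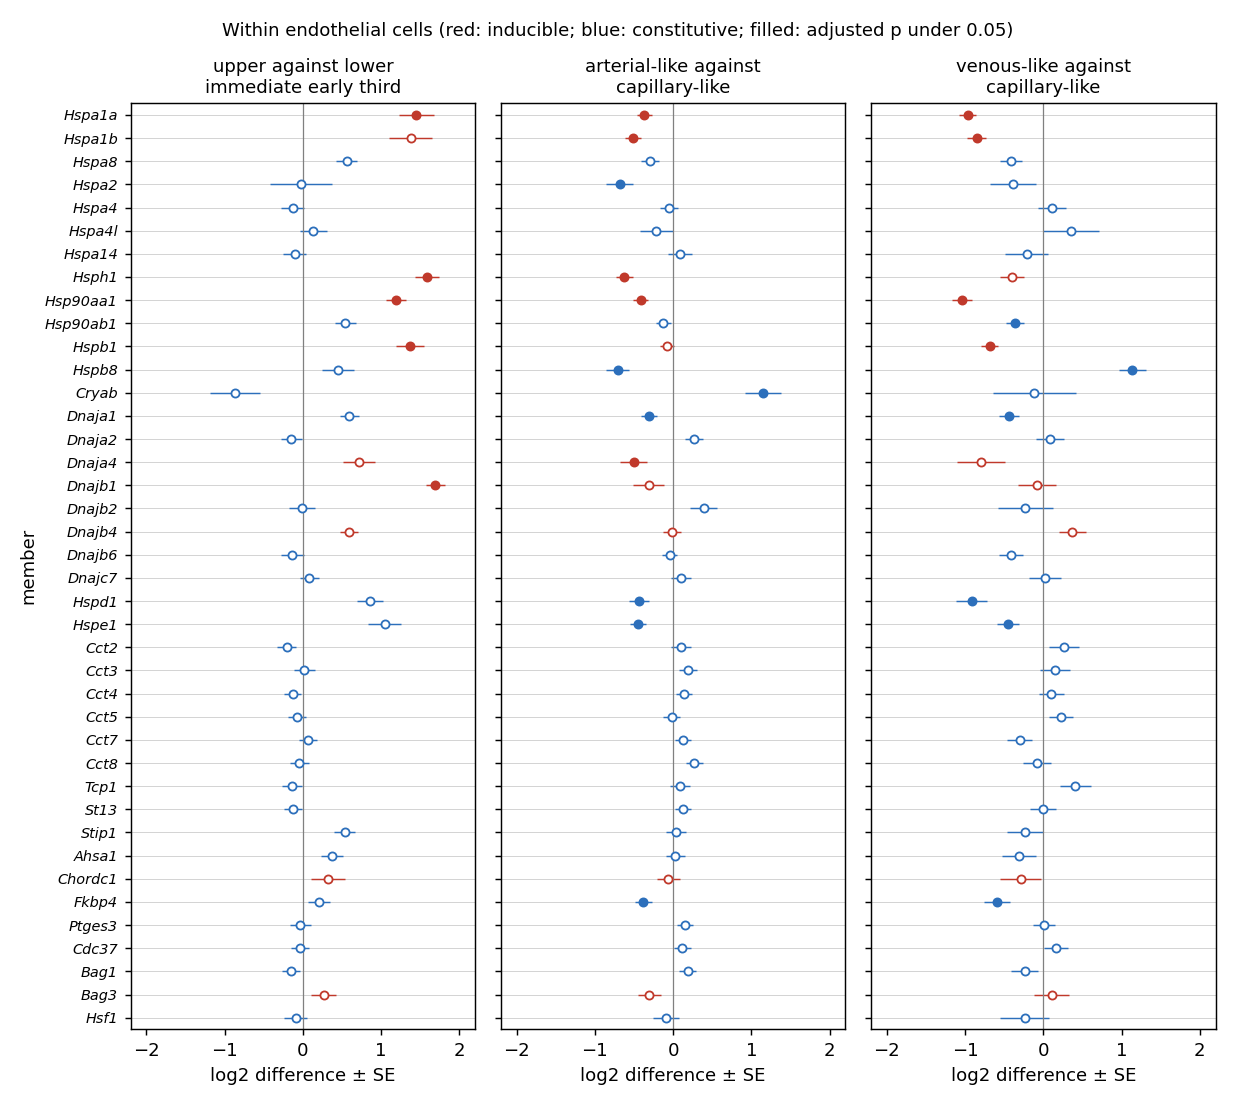
Log2 difference ± SE of each member within endothelial cells (edgeR, TMM), inducible members in red, constitutive in blue, filled where the adjusted p is under 0.05: upper against lower tercile by immediate early RNA, and arterial-like and venous-like against capillary-like cells. Hspa1a lies at 1.45 in the first panel, -0.37 in the second and -0.96 in the third, and no CCT subunit is filled in any of the 3.

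The arterial-like decreases were small, with Hspa1a at log2 -0.37 ± 0.09, Hsp90aa1 at -0.41 ± 0.10 and Hsph1 at -0.62 ± 0.11 (edgeR adjusted p = 0.00682, 0.00485 and 0.000456). Cryab alone was higher (1.15 ± 0.23, adjusted p = 0.000943), at 27.6, 5.55 and 26.5 CPM in arterial-like cells against 9.28, 6.80 and 15.3 CPM in capillary-like cells, so not in replicate 2, and arterial-like cells of replicates 1 and 3 also carried more smooth muscle RNA (Acta2, Myh11 and Tagln at 337 and 146 CPM, against 10.7 and 12.3 CPM in capillary-like cells). Its part was not tested. In venous-like cells Hspa1a fell by 0.96 ± 0.11 and Hsp90aa1 by 1.04 ± 0.12 on the log2 scale (adjusted p = 5.33e-06 and 8.61e-06), and Hspb8 was higher (1.14 ± 0.17, adjusted p = 0.000143), at 277 and 154 CPM in venous-like cells, against 137 and 65.1 CPM in capillary-like cells. Hspd1 and Hspe1 were lower in both segments, but the venous-like Hspe1 call was lost under 11 of 12 alternatives and the arterial-like Hspd1 call in DESeq2 and without replicate 2. Immediate early RNA was 30243 and 23765 CPM in venous-like cells, against 39084 and 38734 CPM in capillary-like cells of the same libraries, and the venous-like cells of replicate 1 had a median of 23121 UMIs, against 7568 in capillary-like cells. Their part was not tested. None of these segment calls passed without the library block.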

How the data were processed

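Per the submitters' processing notes, the authors made the deposited raw UMI counts per gene and barcode with Cell Ranger against mm10. No version is named for it. Barcodes with at least 500 UMIs, 300 genes and at most 20% mitochondrial UMIs were kept, and 172, 9 and 135 doublets of replicates 1, 2 and 3 called by Scrublet (scanpy 1.11.5, assumed rate 0.06) were removed, which left 6240, 945 and 4930 cells. Of these, 4232, 583 and 3197 had all 3 markers of exactly 1 class. Free RNA was not subtracted.

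UMIs were summed per library and class, segment or immediate early tercile (at least 10 cells per profile). They were tested with edgeR 4.0.16 and limma 3.58.1 in R 4.3.3 (glmQLFit and glmQLFTest, TMM, filterByExpr, library as a block, Benjamini-Hochberg at 0.05). The 14 class profiles left 7 residual degrees of freedom, the segments 3 and the terciles 2. The fits were tested on simulated data first. Levels are CPM of the summed UMIs, not divided by gene length. Sums and ratios over members carry no test. The block pairs profiles because those of a library come from the same suspension.

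All 40 members could be named. Values per library were given for inducible members and for those with the largest changes in each role. Likeness to the inducible sum was taken over the 14 profiles used, among genes with a mean of at least 20 CPM. Members and lists were chosen with earlier results of these data known. Alternatives were DESeq2 1.42.0, RLE factors, no filter, no block, leaving out each replicate, other cell and marker filters and thinning. The 5-cell minimum, the 1% erythrocyte limit, and the capillary-like and thinned versions of the terciles were chosen after seeing the data. Cct6a of the pathway list was not analysed here. Some genes that the naming rules select are not reported here. Intervals are exact binomial and cover counting error only. Coordinates and open reading frames come from GENCODE for mm10 and promoters from RefSeq for GRCm38.p6. Hsp90aa1, Hsp90ab1, Hspa8, Cryab, Cct4, St13 and Hsf1 had no promoter entry.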

Additional observations from a re-analysis of the deposited data

How the results depend on the processing

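The 151 member calls (Hspb8 not counted in class comparisons) gave 2194 values under the alternatives, of which 1907 kept their direction and their side of the threshold, 286 were no longer past it and 1 turned round: Chordc1 in ependymal cells, at log2 -0.42 (adjusted p = 0.676, edgeR) with no other class's marker at 2 UMIs. The cause of the changes below was not tested.

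Counts of called members moved by more than 1.5 times as follows. In DESeq2, 10 were higher in endothelial cells, 5 against pericytes, 0 higher and 6 lower in arterial-like cells, 5 lower in venous-like cells and 8 higher in the upper tercile. RLE factors gave 6 higher in endothelial cells against pericytes. Without a filter on low counts 9 were lower in pericytes, 20 higher in endothelial cells against pericytes, and 14 higher and 1 lower in the upper tercile. With no replicate block there were 0 higher and 0 lower in arterial-like and venous-like cells and 0 higher in the upper tercile, while the pairing by library changed no count of the class comparisons by over 1.5 times. Thinning gave 22 lower in astrocytes (1000 UMIs) and 11 higher in the upper tercile (2000 UMIs), a minimum of 5 cells gave 2 lower in pericytes, and dropping cells with another class's marker at 2 UMIs gave 7 higher in endothelial cells against pericytes. Leaving out a replicate gave 4 to 8 higher and 2 to 13 lower in pericytes, 6 to 17 higher in endothelial cells against pericytes, 0 to 1 higher and 7 to 10 lower in arterial-like cells, and 2 to 13 higher and 0 to 1 lower in the upper tercile. A fit without 1 replicate assumes that a lone profile varies like the others.

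The log2 ratio of inducible to constitutive sums was 2.61, 1.99, 1.17, 1.01 and 0.50 in endothelial cells, pericytes, microglia, ependymal cells and astrocytes with the broad list of 21, turning round in the last 3. As a mean of log2(CPM + 1) it was 2.05 in endothelial cells, 0.65 in microglia, 0.0686 in ependymal cells, turning round in microglia and ependymal cells, and -0.73 in astrocytes. Without Hspa1a and Hspa1b it was 0.0523, -1.10, -1.93, -1.02 and -2.44 in the order above.

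Depth limits pericytes most: 107 cells and 414133 UMIs carry all of their values.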

Other observations

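Cells that entered no comparison held inducible chaperone RNA as well. Those with all 3 markers of several classes (236, 35 and 342 cells in replicates 1, 2 and 3) summed to 12140, 6337 and 7575 CPM of the inducible group and 11433, 9297 and 11987 CPM of the constitutive group. Cells of no class (1772, 327 and 1391) had a median of 1697, 1157 and 1428 UMIs and held 9227, 9634 and 6051 CPM of the inducible group. Erythrocyte markers made up 31073 CPM of the cells of no class in replicate 2, against 3510 and 12486 CPM in replicates 1 and 3.

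The 8 ependymal cells of replicate 2, left out of the tests, held 8432 CPM of the inducible and 13861 CPM of the constitutive group, with Hsp90aa1 at 4582 CPM and Cryab at 1502 CPM. Their Hspa1a to Hspa1b ratio was 0.486 on 18 and 37 UMIs.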
